A study of Homo sapiens with 16 samples.

Results

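Cells obtain cholesterol and fatty acids by making them or by taking them up. The 30 genes described here encode the SREBP transcription factors and their partners, the enzymes that turn acetyl-CoA into mevalonate, squalene and cholesterol, a sterol carrier, and the enzymes that make, elongate and desaturate fatty acids. They were chosen by gene symbol from a count table of 59428 genes, with earlier results of these data known. By role they comprised 4 regulators, 7 genes of the mevalonate part, 11 of the sterol part, 1 of sterol transport and 7 of the fatty acid part.

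SREBPs are made as membrane proteins of the endoplasmic reticulum. When sterols are scarce, SCAP escorts them to the Golgi, where proteases release the part that enters the nucleus and activates genes of lipid synthesis. When sterols are plentiful, INSIG proteins hold the SCAP and SREBP complex back, so genes of both pathways commonly move together, and INSIG1 is itself a target.

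The libraries came from OVCAR3 and UWB1.289, cell lines of serous ovarian carcinoma that the study describes as BRCA1 wild-type and BRCA1 mutated. Each line received olaparib, an inhibitor of the PARP enzymes of DNA repair, or its solvent DMSO for 96 h, with 4 libraries in each of 4 groups (16 in all). The olaparib dose, set at the 96 h IC50 of each line, was 7.5 µM in OVCAR3, kept in RPMI1640 with 20% serum (FBS) and bovine insulin, and 3.5 µM in UWB1.289, kept in a mixture of MEGM and RPMI1640 with 3% FBS. Line, BRCA1 status, dose, serum and insulin therefore cannot be told apart, and each BRCA1 status is represented by 1 line. The design says that the experiment was repeated 4 times without saying what was repeated, so the p-values measure the spread between these libraries.

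RNA was read from its 3' end (QuantSeq), and total counts ranged from 5599571 to 7730228 per library. Levels are CPM (counts scaled to a common library size, per 1e6 counts) after TMM normalization over all 16 libraries, as mean ± SD (n = 4 per group). A gene's own levels can be compared between groups, whereas levels of different genes cannot be ranked from 3' counts. A gene passed the test at an edgeR adjusted p below 0.1 over all genes tested, and it was called differentially expressed if it also changed by more than 2-fold with an average count above 10. Intervals are approximate 95% intervals. The first principal component of the log2 CPM over the 16 libraries carried 82.9% of the variance. Of the epithelial markers, PAX8, MUC16, EPCAM, KRT7, KRT8 and KRT18 were detected in both lines, and WT1 was at 121 ± 7.11 CPM in OVCAR3 with DMSO and had no count in UWB1.289 with DMSO. Among the markers of other cell types COL3A1 had no count in any library, and PTPRC, PECAM1 and CDH5 were at 1.66 to 11.1 CPM in UWB1.289. The highest was COL1A1 in OVCAR3, at 21.2 to 30.4 CPM with DMSO and 30.4 to 38.9 CPM with olaparib.

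The promoters of a few members are shown because they carry, or lack, exact letters searched for. These were a core of the sterol regulatory element, which SREBPs bind, and the motif of NF-Y, their usual partner. Promoter windows of RefSeq (GRCh38.p14, 250 bases before to 50 after each gene start) were found for 26 of the 30 members, and those of ACAT2, FASN, FDFT1 and SQLE were not matched. The core of the sterol regulatory element (TCACNCCAC, both strands) was in 1 of the 26 windows (3.85%), that of SREBF2, against 1.15% of all 27305 windows in the table. The NF-Y motif (CCAAT, both strands) was in 17 of 26 (65.4%) against 35.7% of all windows, the Sp1 GC box (GGGCGG) in 24 of 26 (92.3%) against 44.6%, and the E-box (CACGTG) in 4 of 26 (15.4%) against 7.43%. Over the 15842 windows of protein-coding genes, the class of all members, the shares were 1.17% for the sterol element core, 36.4% for CCAAT, 58.5% for GGGCGG and 8.88% for CACGTG. A match is a run of letters and not a shown binding site. Other forms of these elements were not searched for, so a window without a match may still hold a site.

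The 250 bases before the gene start are given below 5′ to 3′ on the strand of the gene, with the sterol element core and the NF-Y motif in capitals (ATTGG is CCAAT on the other strand). Gene starts here are those of RefSeq, which can differ from the GENCODE coordinates given for the genes. The GENCODE starts of HMGCS1 (43313512) and NSDHL (152830967) lie within the stretches shown, so part of each is inside the GENCODE gene. SREBF2 (chr22:41832855-41833104, + strand) is the 1 of the 26 matched members with the sterol element core, at -133 to -125 from the gene start. HMGCS1 (chr5:43313413-43313662, - strand) and SCD (chr10:100346983-100347232, + strand) are members with large olaparib effects, each with 2 NF-Y motifs. NSDHL (chrX:152830813-152831062, + strand) holds 5 NF-Y motifs, a pair of which overlap, and passed the test with olaparib in neither line.
SREBF2: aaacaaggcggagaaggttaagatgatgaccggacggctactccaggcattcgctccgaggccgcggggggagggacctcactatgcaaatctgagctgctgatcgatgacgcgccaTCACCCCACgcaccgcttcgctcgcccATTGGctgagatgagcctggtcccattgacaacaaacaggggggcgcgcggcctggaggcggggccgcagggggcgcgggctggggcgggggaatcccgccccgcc
HMGCS1: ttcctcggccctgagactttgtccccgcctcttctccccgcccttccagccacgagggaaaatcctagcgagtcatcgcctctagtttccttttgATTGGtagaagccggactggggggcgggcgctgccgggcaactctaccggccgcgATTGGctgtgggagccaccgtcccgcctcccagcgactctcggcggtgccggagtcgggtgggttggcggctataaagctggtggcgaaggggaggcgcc
SCD: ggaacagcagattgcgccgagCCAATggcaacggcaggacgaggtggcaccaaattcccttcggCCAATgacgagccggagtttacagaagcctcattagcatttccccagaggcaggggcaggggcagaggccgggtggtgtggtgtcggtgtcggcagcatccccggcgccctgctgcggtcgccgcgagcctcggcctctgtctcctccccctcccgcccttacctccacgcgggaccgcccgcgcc
NSDHL: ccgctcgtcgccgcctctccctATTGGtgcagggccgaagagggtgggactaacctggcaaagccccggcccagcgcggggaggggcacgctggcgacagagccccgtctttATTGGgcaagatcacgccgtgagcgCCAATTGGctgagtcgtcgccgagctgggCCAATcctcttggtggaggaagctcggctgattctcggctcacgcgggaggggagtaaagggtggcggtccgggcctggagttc

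With olaparib, most of these genes were lower in both lines. In OVCAR3, 20 of the 29 tested members fell and 1 rose, the median log2 fold change was -0.38 against -0.01 over all 13031 genes tested, and 16% of all genes were lower and 15.5% higher. In UWB1.289, 19 of 29 fell and 0 rose, with a median of -0.45 against 0.00 over all 12748 genes, of which 6.1% were lower and 7.77% higher. No member rose in UWB1.289 at an unadjusted p below 0.05 with edgeR, nor with DESeq2. The falls were mostly moderate. In OVCAR3 3 members were called differentially expressed (5.23% of all genes), namely SCD, INSIG1 and SREBF1. SREBF1 was at the limit and fell by just under 2-fold with DESeq2, and without OVCAR3 DMSO replicate 2, DMSO replicate 3 or olaparib replicate 4. INSIG1 did so without OVCAR3 DMSO replicate 2 or olaparib replicate 2 (log2 -0.96 at the smallest). In UWB1.289 0 were (2.21% of all genes), also with DESeq2 and at an unadjusted p below 0.05. All 4 olaparib libraries lay below all 4 DMSO libraries for 19 members in OVCAR3 (13.3% of all genes) and for 18 in UWB1.289 (6.97%), and above them for 0 in either line (12.4% and 7.73% of all genes). From counts of RNA in a culture, less RNA in every cell and fewer cells that carry it cannot be told apart.

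The shift was seen in every olaparib library. The members together held 0.283% ± 0.0132 of all counts in OVCAR3 with DMSO and 0.203% ± 0.00723 with olaparib. In UWB1.289 they held 0.43% ± 0.0262 with DMSO and 0.323% ± 0.022 with olaparib, and the groups of a line did not overlap. Taken relative to the mean of its own line's DMSO libraries, the median member lay at -0.43, -0.46, -0.43 and -0.38 on the log2 scale in OVCAR3 olaparib replicates 1 to 4, with 25 to 27 of 29 members below 0. In UWB1.289 olaparib replicates 1 to 4 it lay at -0.29, -0.34, -0.52 and -0.46, with 25 to 29 members below 0. The DMSO libraries lay between -0.08 and 0.13, and the median over all genes stayed within 0.02 of 0 in every library.

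**Figure D1:**
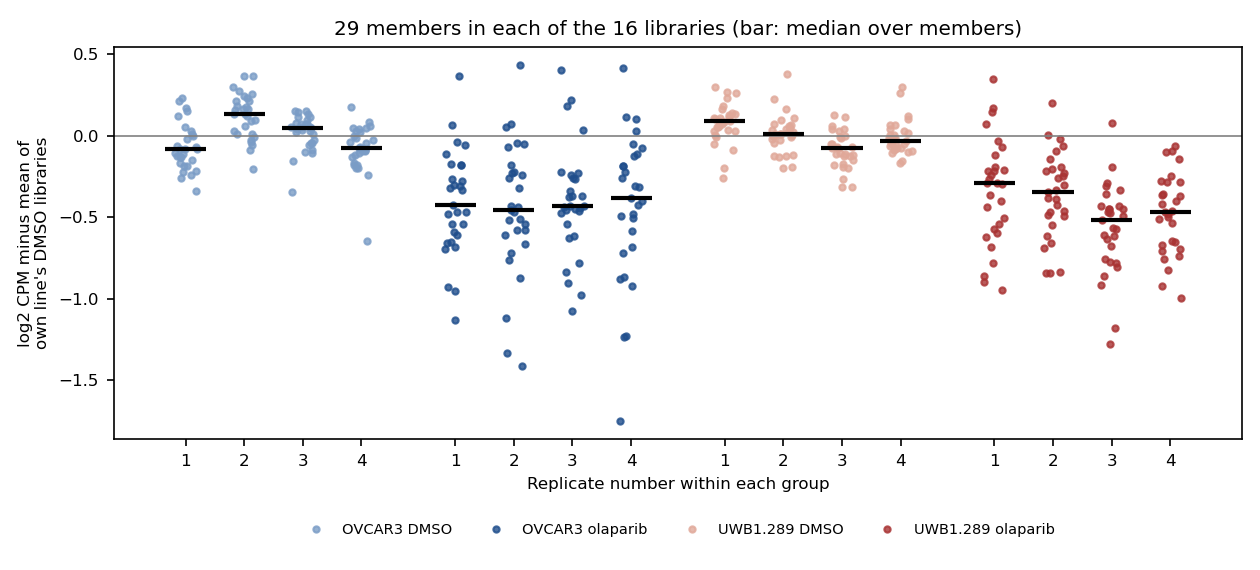
Each point is 1 of the 29 tested members in 1 of the 16 libraries, as its log2 CPM minus the mean of the DMSO libraries of the same line (vertical axis), with libraries by group and replicate number along the horizontal axis and bars for the median over members. The medians of the 8 olaparib libraries lie between -0.52 and -0.29, below those of the 8 DMSO libraries, which lie between -0.08 and 0.13.

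Of the 4 regulators, 3 fell in OVCAR3 and 2 in UWB1.289. SREBF1 (ENSG00000072310, chromosome 17, 17810399 to 17837002, reverse strand, hg38) encodes SREBP-1, which mainly drives fatty acid synthesis. In OVCAR3 it measured 26.3, 35.4, 32.9 and 30.8 CPM in DMSO replicates 1 to 4 and 19.3, 16.9, 17.4 and 9.05 CPM in olaparib replicates 1 to 4. All olaparib libraries lay below all DMSO libraries and olaparib replicate 4 was the lowest. The gene was 2.01-fold lower (log2 -1.005, SE 0.173, adjusted p = 0.000228), and the log2 value lay between -1.12 and -0.81 with any 1 library left out, the latter without olaparib replicate 4. Its UWB1.289 libraries measured 17.2, 17.7, 13.7 and 20.6 CPM with DMSO and 10.6, 16.02, 6.90 and 16.4 CPM with olaparib. There the groups overlapped, and the change did not pass (log2 -0.47, SE 0.206, adjusted p = 0.162). It passed without olaparib replicate 2 or olaparib replicate 4 (-0.61 and -0.65, adjusted p = 0.0699 and 0.0918). It also passed in the fit with the replicate number as a block (-0.50, adjusted p = 0.0345). The interval of the difference between the lines ran from -0.04 to 1.10.

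SREBF2 (ENSG00000198911, chromosome 22, 41833105 to 41907306, forward strand) encodes SREBP-2, which mainly drives the sterol pathway. In OVCAR3 it measured 54.7, 53.9, 47.6 and 41.6 CPM with DMSO and 35.1, 36.4, 32.0 and 43.3 CPM with olaparib, so that olaparib replicate 4 lay above DMSO replicate 4. The fall was small (log2 -0.42, SE 0.116, adjusted p = 0.0108). With DMSO the UWB1.289 libraries measured 44.3, 43.4, 42.6 and 40.5 CPM and with olaparib 37.3, 30.4, 26.6 and 30.2 CPM, with no overlap, and it fell by 0.45 (SE 0.113, adjusted p = 0.0117). The falls differed between the lines by -0.03, with an interval from -0.35 to 0.29.

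INSIG1 (ENSG00000186480, chromosome 7, 155297776 to 155310235, forward strand) encodes the retention protein. In OVCAR3 it measured 26.5, 38.5, 30.7 and 32.3 CPM with DMSO and 20.1, 11.7, 15.9 and 13.3 CPM with olaparib, 2.09-fold lower (log2 -1.06, SE 0.158, adjusted p = 4.42e-05). In UWB1.289, where the gene was higher, it measured 124.5, 121, 107 and 109 CPM with DMSO and 59.8, 87.9, 66.9 and 68.0 CPM with olaparib, 1.63-fold lower (log2 -0.71, SE 0.106, adjusted p = 8.32e-05). The groups did not overlap in either line.

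SCAP (ENSG00000114650, chromosome 3, 47413681 to 47477126, reverse strand), the escort protein, passed in neither line. In OVCAR3 it measured 122.5, 115, 126 and 108 CPM with DMSO and 95.1, 114, 91.0 and 126.5 CPM with olaparib, with overlap (log2 -0.14, SE 0.0981, adjusted p = 0.315). Of the libraries left out in turn, OVCAR3 olaparib replicate 4 was the one without which it passed, at -0.24 (adjusted p = 0.0347). The UWB1.289 libraries measured 67.4, 59.4, 70.2 and 62.7 CPM with DMSO and 71.7, 51.1, 56.8 and 53.2 CPM with olaparib (log2 -0.16, SE 0.108, adjusted p = 0.413). Leaving out UWB1.289 olaparib replicate 1, the highest of that group, brought it to -0.27 (adjusted p = 0.0914).

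The mevalonate part builds the isoprenoid units from acetyl-CoA. In OVCAR3 5 of its 7 genes fell and in UWB1.289 4 did. HMGCS1 (ENSG00000112972, chromosome 5, 43287470 to 43313512, reverse strand), which condenses acetoacetyl-CoA with acetyl-CoA, fell most in both lines. The OVCAR3 libraries measured 403, 513, 451 and 472.5 CPM with DMSO and 241, 211, 245.5 and 242 CPM with olaparib, 1.95-fold lower (log2 -0.96, SE 0.0811, adjusted p = 3.33e-08). Those of UWB1.289 measured 483, 403, 360 and 408 CPM with DMSO and 226, 269, 236 and 232.5 CPM with olaparib, 1.72-fold lower (log2 -0.78, SE 0.0901, adjusted p = 2.16e-06). The groups were wide apart in both lines. An opposite-strand noncoding gene of the annotation shares 37.7% of the exon bases of HMGCS1, and how strand was treated in counting is not given in the sources used here.

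MVK (ENSG00000110921, chromosome 12, 109573255 to 109598125, forward strand), the kinase of mevalonate, measured 24.6, 20.0, 22.3 and 18.5 CPM in OVCAR3 with DMSO and 16.8, 15.6, 13.7 and 16.04 CPM with olaparib (log2 -0.46, SE 0.137, adjusted p = 0.0194). The groups did not overlap. Its levels in UWB1.289 were 110, 88.1, 83.5 and 84.4 CPM with DMSO and 95.5, 69.8, 58.6 and 68.8 CPM with olaparib, where olaparib replicate 1 lay within the DMSO group (log2 -0.32, SE 0.123, adjusted p = 0.111). There it passed with the replicate number as a block (-0.33, adjusted p = 0.00877) and without olaparib replicate 1 (-0.47, adjusted p = 0.00627). MVD (ENSG00000167508, chromosome 16, 88651935 to 88663161, reverse strand), the decarboxylase that yields isopentenyl diphosphate, was low in OVCAR3. The values were 9.09, 12.8, 7.68 and 10.5 CPM with DMSO and 8.08, 9.52, 7.12 and 8.64 CPM with olaparib, with overlap (log2 -0.25, SE 0.191, adjusted p = 0.364). In UWB1.289 the values were 59.2, 57.7, 57.1 and 56.5 CPM with DMSO and 56.5, 36.5, 38.7 and 36.2 CPM with olaparib, and it fell by 0.46 (SE 0.122, adjusted p = 0.0190). Olaparib replicate 1 there (56.48 CPM) was just below the lowest DMSO library (56.51 CPM) and far above the other 3 of its group.

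Of the remaining mevalonate genes, ACAT2, which makes acetoacetyl-CoA, went from 59.1 ± 4.48 to 45.4 ± 3.61 CPM in OVCAR3 (log2 -0.37, adjusted p = 0.00699) and from 210 ± 27.7 to 145 ± 15.2 CPM in UWB1.289 (log2 -0.54, adjusted p = 0.000739). FDPS, the farnesyl diphosphate synthase, fell by 0.19 (adjusted p = 0.0756) and 0.37 (adjusted p = 0.0036) on the log2 scale. PMVK, the kinase after MVK, fell in OVCAR3 by 0.52 (adjusted p = 0.00248), and its log2 fold change was -0.15 in UWB1.289 (adjusted p = 0.509). IDI1, the isomerase of isopentenyl diphosphate, passed in neither line, with log2 fold changes of -0.19 and -0.27, and in UWB1.289 it passed without olaparib replicate 2 (-0.47, adjusted p = 0.0332). On the opposite strand, other annotated genes share 22.2% of the exon bases of ACAT2 (TCP1 and SOD2 among them), 18.6% of FDPS and 15% of IDI1. The call of FDPS in OVCAR3 was lost with any 1 of 5 libraries left out (DMSO replicates 1, 2 and 3 and olaparib replicates 2 and 3, -0.18 to -0.14).

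The sterol part runs from farnesyl diphosphate through squalene and lanosterol to cholesterol. In OVCAR3 6 of 10 tested genes fell and in UWB1.289 7 did. TM7SF2 (ENSG00000149809, chromosome 11, 65111845 to 65116384, forward strand), a sterol C14 reductase, fell most in UWB1.289. Its OVCAR3 libraries measured 179, 142, 168 and 170 CPM with DMSO and 84.6, 99.4, 95.5 and 102 CPM with olaparib, 1.72-fold lower (log2 -0.78, SE 0.0875, adjusted p = 1.6e-06). Its UWB1.289 libraries measured 107, 103, 104 and 91.0 CPM with DMSO and 65.7, 56.4, 44.6 and 50.6 CPM with olaparib, 1.87-fold lower (log2 -0.90, SE 0.107, adjusted p = 3.3e-06). No olaparib library reached a DMSO library of its line.

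DHCR7 (ENSG00000172893, chromosome 11, 71428193 to 71452868, reverse strand), which reduces 7-dehydrocholesterol to cholesterol, measured 34.9, 52.0, 45.9 and 45.8 CPM in OVCAR3 with DMSO and 29.2, 31.8, 34.2 and 31.7 CPM with olaparib (log2 -0.49, SE 0.118, adjusted p = 0.00468). The UWB1.289 libraries measured 210, 199, 175 and 178 CPM with DMSO and 164, 173, 138 and 157 CPM with olaparib (log2 -0.27, SE 0.0884, adjusted p = 0.0574). The groups did not overlap in either line. The UWB1.289 call was lost without DMSO replicate 1, DMSO replicate 2, olaparib replicate 3 or olaparib replicate 4 (-0.27 to -0.21).

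FDFT1, which makes squalene, fell by 0.52 in OVCAR3 and by 0.62 in UWB1.289 on the log2 scale (adjusted p = 0.000168 and 5.84e-05). SQLE, which oxidizes squalene, fell by 0.51 and 0.32 (adjusted p = 0.00199 and 0.00539). LSS, which closes the rings to lanosterol, fell by 0.33 and 0.58 (adjusted p = 0.057 and 0.0146). MSMO1, a sterol C4 methyl oxidase, fell by 0.50 and 0.61 (adjusted p = 0.000521 and 0.000121). All 4 were lower in both lines. The OVCAR3 call of LSS was lost without DMSO replicate 3, DMSO replicate 4 or olaparib replicate 1 (-0.32 to -0.25), and with DESeq2 (-0.33, adjusted p = 0.109). Without the filter on low counts it was lost as well (-0.33, adjusted p = 0.106).

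The remaining sterol genes were NSDHL, EBP, SC5D, HSD17B7 and CYP51A1. NSDHL, a C4 decarboxylase, had log2 fold changes of -0.07 in OVCAR3 and 0.08 in UWB1.289, and neither passed. Without OVCAR3 olaparib replicate 4 it passed as lower (-0.28, adjusted p = 0.0506). EBP, a sterol isomerase, shares 36.4% of its exon bases with another annotated gene on the same strand. It was at 0.04 in OVCAR3 and fell by 0.27 in UWB1.289 (adjusted p = 0.0986). That call was lost with any 1 of 5 libraries left out (DMSO replicates 1, 2 and 4 and olaparib replicates 3 and 4, -0.27 to -0.20). It was also lost with the size factors of DESeq2 (-0.27, adjusted p = 0.102). SC5D, a sterol desaturase, was at -0.08 and -0.24 and passed in UWB1.289 with the replicate number as a block (adjusted p = 0.0478) and without DMSO replicate 3 or olaparib replicate 2 (adjusted p = 0.0657 and 0.0437). HSD17B7, a 3-ketosteroid reductase, was at -0.38 in both lines with intervals from -0.95 to 0.19 and from -0.76 to 0.01, and it held 16 to 88 counts per library. It has 2 annotated pseudogenes with 69 counts in all, so its reads may be divided. CYP51A1, the lanosterol demethylase, had 0 counts in all 16 libraries and was not tested. A count of 0 allows up to 3 counts per library, and 68.2% of its exon bases are shared with other genes on the same strand in the annotation of GENCODE release 44.

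STARD4, a carrier of cholesterol between membranes, went from 8.86 ± 1.71 to 5.57 ± 0.727 CPM in OVCAR3, 1.58-fold lower (log2 -0.66, SE 0.204, adjusted p = 0.0228). In UWB1.289 it was at 10.9 ± 2.29 CPM with DMSO and 7.63 ± 1.15 CPM with olaparib, which did not pass (log2 -0.50, SE 0.195, adjusted p = 0.117) and passed with the replicate number as a block (adjusted p = 0.0679) or without olaparib replicate 2 (-0.58, adjusted p = 0.0855).

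**Figure D2:**
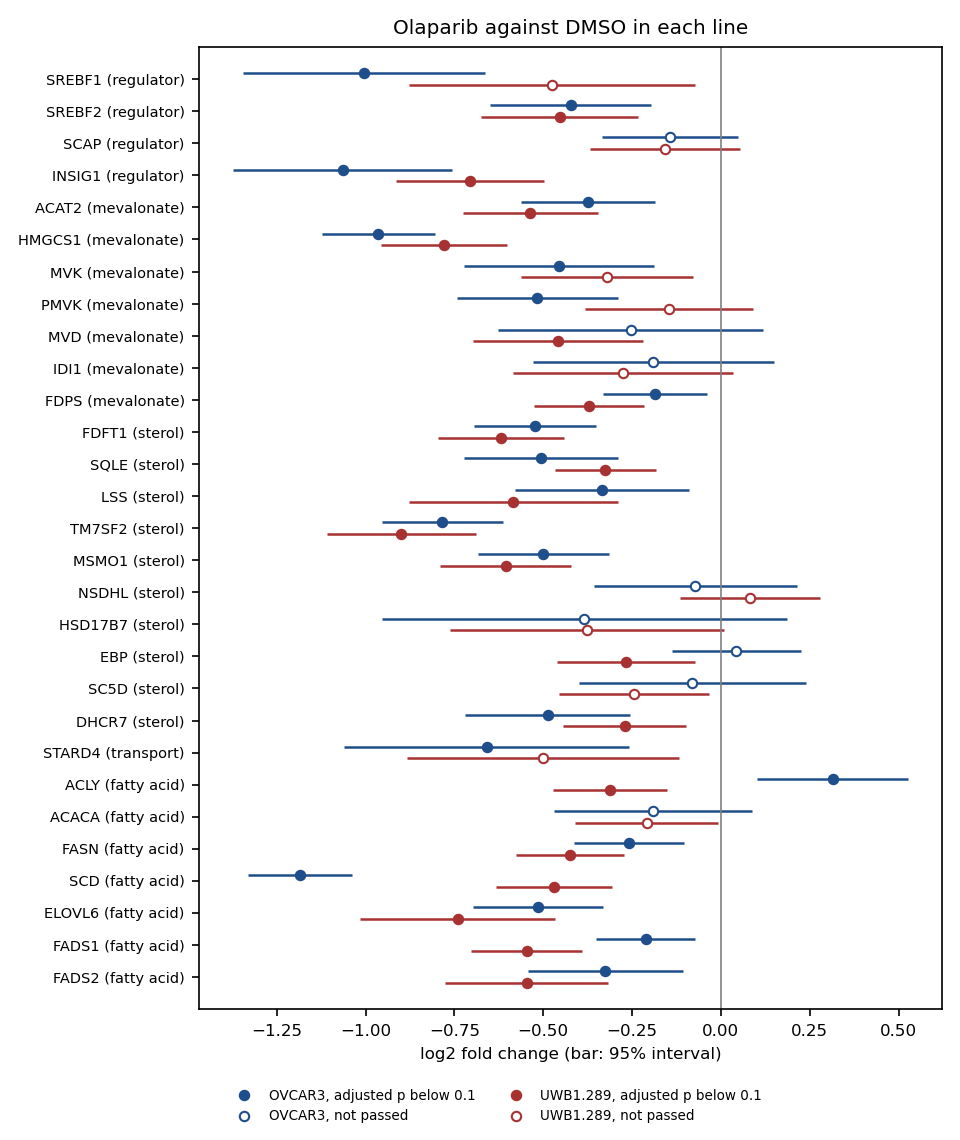
Log2 fold change of olaparib against DMSO (horizontal axis) for the 29 tested members (vertical axis, with the role of each), OVCAR3 in blue and UWB1.289 in red, with bars for the 95% interval and filled points for an adjusted p below 0.1. SCD, INSIG1 and SREBF1 lie furthest left in OVCAR3 (-1.18, -1.06 and -1.005), and ACLY is the one filled point above 0 (0.32, OVCAR3).

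In the fatty acid part 5 of 7 genes fell and 1 rose in OVCAR3, and 6 of 7 fell in UWB1.289. SCD (ENSG00000099194, chromosome 10, 100347233 to 100364826, forward strand), which puts the first double bond into saturated fatty acids, had the largest fall of all members in OVCAR3. It measured 331.5, 353, 361 and 358 CPM with DMSO and 160.4, 139, 166 and 149.8 CPM with olaparib, 2.27-fold lower (log2 -1.18, SE 0.0753, adjusted p = 5.78e-10). The UWB1.289 levels were 562, 549, 496.5 and 537 CPM with DMSO and 368, 451, 351 and 376 CPM with olaparib, 1.38-fold lower (log2 -0.47, SE 0.0836, adjusted p = 0.000634). The groups were separate in both lines, and the fall was larger in OVCAR3 (difference 0.72, interval 0.50 to 0.94, adjusted p = 6.12e-05).

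ACLY (ENSG00000131473, chromosome 17, 41866917 to 41930542, reverse strand), which makes the cytosolic acetyl-CoA that feeds both pathways, moved in opposite directions. The OVCAR3 levels were 48.1, 58.5, 58.1 and 46.2 CPM with DMSO and 67.8, 71.0, 69.3 and 53.6 CPM with olaparib, so it rose (log2 0.32, SE 0.108, adjusted p = 0.0391). Olaparib replicate 4 lay within the DMSO group, and the call was lost without DMSO replicate 1, DMSO replicate 4 or olaparib replicate 2 (0.25 to 0.27, adjusted p up to 0.139). The UWB1.289 levels were 237, 213, 205 and 209 CPM with DMSO and 179, 188, 158 and 169 CPM with olaparib, with no overlap, and it fell by 0.31 (SE 0.082, adjusted p = 0.0172). The difference between the lines of -0.63 passed (interval -0.89 to -0.36, adjusted p = 0.00316), and with any 1 library left out it lay between -0.71 and -0.58 and passed.

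ELOVL6 (ENSG00000170522, chromosome 4, 110045846 to 110199199, reverse strand), which elongates palmitate, measured 64.3, 79.5, 80.2 and 69.4 CPM in OVCAR3 with DMSO and 50.05, 50.1, 50.1 and 54.4 CPM with olaparib (log2 -0.52, SE 0.0932, adjusted p = 0.000364). The UWB1.289 libraries measured 26.5, 33.0, 26.8 and 26.8 CPM with DMSO and 21.8, 15.7, 15.4 and 14.7 CPM with olaparib (log2 -0.74, SE 0.14, adjusted p = 0.00116). The groups did not overlap in either line.

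FADS1 (ENSG00000149485, chromosome 11, 61799627 to 61829318, reverse strand), a desaturase of polyunsaturated fatty acids, measured 146.5, 146, 151 and 143 CPM in OVCAR3 with DMSO and 129, 125, 125 and 125 CPM with olaparib (log2 -0.21, SE 0.071, adjusted p = 0.0343). Those of UWB1.289 measured 267.5, 283, 249 and 251 CPM with DMSO and 194, 186, 171 and 167.5 CPM with olaparib (log2 -0.55, SE 0.0796, adjusted p = 5.72e-05). The small change in OVCAR3 lay outside a narrow spread, and the fall was larger in UWB1.289 (difference -0.33, interval -0.53 to -0.13, adjusted p = 0.0429). That difference did not pass without UWB1.289 DMSO replicate 2 (-0.30, adjusted p = 0.101). The OVCAR3 call itself was lost without DMSO replicate 3 (-0.20, adjusted p = 0.105).

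FADS2, the neighboring desaturase gene, fell by 0.32 in OVCAR3 and by 0.55 in UWB1.289 (adjusted p = 0.0391 and 0.00361). FASN, the fatty acid synthase, fell by 0.26 and 0.42 (adjusted p = 0.0212 and 0.000851). ACACA, which makes malonyl-CoA, passed in neither line, with log2 fold changes of -0.19 and -0.21. In OVCAR3 the FADS2 call was lost without DMSO replicate 2 or DMSO replicate 3 (-0.29 to -0.22), and that of FASN without olaparib replicate 3 (-0.19, adjusted p = 0.112).

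**Figure D3:**
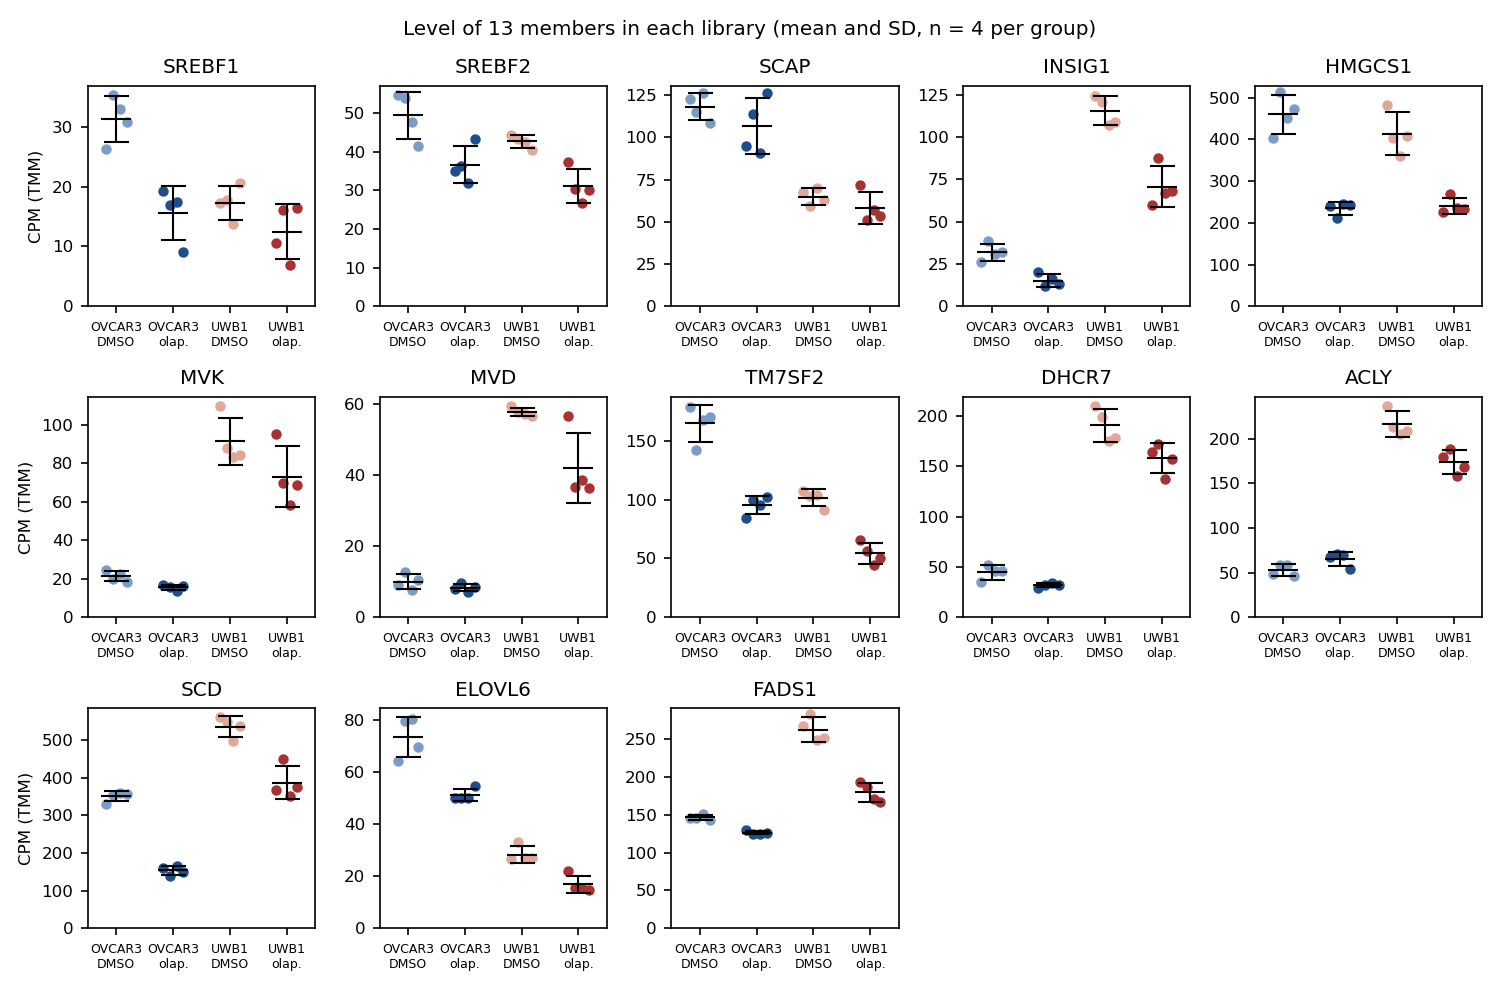
CPM (vertical axis, from 0) of 13 members in every library, with points for libraries and black marks for the mean and SD of each group of 4 (horizontal axis). SCD and HMGCS1 show all olaparib libraries below all DMSO libraries in both lines, while ACLY rises in OVCAR3 and falls in UWB1.289 and SCAP overlaps between treatments.

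Both olaparib comparisons rest on separate libraries, so their calls can be set side by side. Of the 29 members, 16 (55.2%) fell in both lines, against 308 of the 11670 genes tested in both (2.64%), and 26 had a negative log2 fold change in both (89.7% against 32%). MVK, PMVK, SREBF1 and STARD4 passed in OVCAR3 and not in UWB1.289, MVD and EBP in UWB1.289 and not in OVCAR3, and IDI1, NSDHL, HSD17B7, SC5D, SCAP and ACACA in neither. With the replicate number as a block, MVK, SREBF1 and STARD4 also passed in UWB1.289, which made 19 members lower in both lines. A call in 1 line and not in the other is no difference between lines. That difference itself passed for SCD (higher, 5.09% of all genes) and for ACLY and FADS1 (lower, 5.83% of all genes), and for 0 members was it beyond 2-fold (3.66% of all genes, 0 also with DESeq2 and at an unadjusted p below 0.05). For the other 26 members the differences lay between -0.31 and 0.53, with intervals within 2-fold for 25, the exception being SREBF1, and holding 0 for 24, the exceptions being PMVK (0.04 to 0.70) and EBP (-0.58 to -0.04). That of EBP passed without UWB1.289 olaparib replicate 2 (-0.38, adjusted p = 0.092). Across the 29 members the log2 fold changes of the lines had a Pearson r of 0.57 and a Spearman rho of 0.61, against 0.37 and 0.32 across the 11670 genes. These are descriptions across genes, which are not independent replicates.

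The 12 members lower in both lines that had a promoter window held the NF-Y motif in 9 cases, and the other 14 in 8. The 14 include CYP51A1, which was not tested and held 0 NF-Y motifs. ACAT2, FASN, FDFT1 and SQLE, which had no window, were all lower in both lines.

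Genes near these pathways were counted by list. Over all genes tested, 16% fell and 15.5% rose in OVCAR3, and 6.1% fell and 7.77% rose in UWB1.289. The list of further SREBP and isoprenoid genes held 10, of which 1 is not reported here, so its counts do not describe the whole list. Of the other 9, 0 passed in either line, also at an unadjusted p below 0.05. Their log2 fold changes ran from -0.50 to 0.16 in OVCAR3 (median -0.09) and from -0.21 to 0.32 in UWB1.289 (median -0.04). Of 7 tested genes of oxysterols and LXR, the receptor that senses them, 3 fell in OVCAR3 and 0 rose, also at an unadjusted p below 0.05. Among them were the cholesterol exporters ABCG1 (log2 -1.36, SE 0.371, adjusted p = 0.0104) and ABCA1 (log2 -1.09, SE 0.224, adjusted p = 0.00122), both at low counts. ABCA1 went from 7.52 ± 0.388 to 3.50 ± 0.701 CPM and ABCG1 from 3.16 ± 0.557 to 1.23 ± 0.656 CPM. The third, MYLIP, named after its values were seen, encodes a ligase that marks lipoprotein receptors for breakdown (log2 -0.72, adjusted p = 0.000352), and its effect differed between the lines by 0.67 (adjusted p = 0.0375). In UWB1.289 0 of 6 passed, also at an unadjusted p below 0.05. That difference did not pass for ABCA1 or ABCG1 (adjusted p = 0.191 and 0.68), and ABCG1 had 0 to 2 counts per library in UWB1.289.

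Of 19 further fatty acid and glycerolipid genes, 5 fell (16% of all genes) and 2 rose (15.5%) in OVCAR3. In UWB1.289 4 fell (6.1% of all genes) and 1 rose (7.77%). In OVCAR3 the largest changes were those of ACSL1, which activates fatty acids (log2 -0.69, adjusted p = 0.0559), and ELOVL5, an elongase of polyunsaturated fatty acids (log2 0.54, adjusted p = 0.00541). In UWB1.289 they were those of ACSS2, which makes acetyl-CoA from acetate (log2 -0.82, adjusted p = 0.00027), and DGAT2, which completes triglycerides (log2 0.75, adjusted p = 0.0091). ELOVL5 fell in UWB1.289 (log2 -0.35, adjusted p = 0.0173), so that, as for ACLY, the directions were opposite, and the effect in UWB1.289 minus that in OVCAR3 was -0.89 (SE 0.158, adjusted p = 0.000348). The other genes of the list that passed, named after their values were seen, were ACSL3 and HADHA (lower in both lines), LPIN1 and ACADM (lower in OVCAR3) and CPT1A (higher in OVCAR3), at log2 changes from -0.43 to 0.47.

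Markers of the epithelial type moved as well. The shares over all genes were 16% lower and 15.5% higher in OVCAR3, and 6.1% lower and 7.77% higher in UWB1.289. In OVCAR3 5 of 7 fell and 1 rose with olaparib, with KRT8 at log2 -1.05 and KRT18 at -1.02 and, named after their values were seen, WT1 at -0.68, MUC16 at -0.59, EPCAM at -0.18 and KRT7 at 0.19, while PAX8 was at -0.06. Their summed level was 3954 to 4225 CPM with DMSO and 2471 to 2764 CPM with olaparib. In UWB1.289 2 of 6 fell and 1 rose, with KRT18 at -0.40, KRT8 at -0.30 and MUC16 at 0.69, and the summed level was 7367 to 7984 and 5784 to 7120 CPM. Of 6 markers of other cell types, the 1 tested in OVCAR3 rose, the fibroblast gene COL1A1, from 24.4 ± 4.13 to 36.1 ± 3.88 CPM, and of the 4 tested in UWB1.289 0 passed, also at an unadjusted p below 0.05. The summed level of the 6 was 21.4 to 30.7 CPM with DMSO and 31.5 to 39.3 CPM with olaparib in OVCAR3, and 14.6 to 21.5 and 17.3 to 22.6 CPM in UWB1.289, with COL3A1 at 0 throughout and DCN at 0 or 1 count per library. The part of these changes in those of the lipid genes was not tested.

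Without drug, the lines differed in most members. UWB1.289 was higher than OVCAR3 for 20 of 29 and lower for 6, where 39.8% of all 13366 genes were higher and 40.1% lower. The groups did not overlap for 18 higher (34.5% of all genes) and 4 lower members (34.9%), 14 were differentially expressed (38.4% of all genes), and the median log2 difference was 0.84 against -0.02 over all genes. These comparisons use the DMSO libraries that also serve both olaparib comparisons. Medium and serum differ between the lines, and their part cannot be told apart from that of the line.

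The 3 largest differences were in enzymes of the mevalonate and sterol parts. MVD was 5.78-fold higher in UWB1.289 (log2 2.53, SE 0.128, 57.7 ± 1.17 against 10 ± 2.17 CPM), MVK 4.28-fold (log2 2.10, SE 0.11, 91.4 ± 12.4 against 21.3 ± 2.69 CPM) and DHCR7 4.26-fold (log2 2.09, SE 0.0969, 191 ± 16.5 against 44.6 ± 7.12 CPM). ACLY was 4.09-fold higher (log2 2.03) and SC5D 4.06-fold (log2 2.02). INSIG1, SQLE, ACAT2 and IDI1 followed at log2 differences from 1.66 to 1.85. All 9 had groups that did not overlap, with edgeR adjusted p of 3.56e-14 or smaller.

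The transcription factors and their escort went the other way. SREBF1 was 1.81-fold lower in UWB1.289 (log2 -0.85, SE 0.134, adjusted p = 1.35e-06) and SCAP 1.82-fold lower (log2 -0.86, SE 0.0832, adjusted p = 1.18e-10). SREBF2 was lower by a small amount (log2 -0.21, SE 0.0997, adjusted p = 0.0554), with groups that overlapped, and did not pass with DESeq2 (adjusted p = 0.131) or without OVCAR3 DMSO replicate 1, OVCAR3 DMSO replicate 2 or UWB1.289 DMSO replicate 4 (-0.17). ELOVL6 was 2.6-fold lower (log2 -1.38, SE 0.103, adjusted p = 3.88e-13), against the direction of the other 6 genes of the fatty acid part, which were higher by 0.28 (FASN) to 2.03 (ACLY). TM7SF2 was 1.63-fold lower (log2 -0.70, adjusted p = 5.6e-09), the 1 lower gene of the sterol part. HMGCS1 was lower by 0.15 on the log2 scale (adjusted p = 0.0826), a call lost without any 1 of 5 libraries (OVCAR3 DMSO replicates 2 and 4 and UWB1.289 DMSO replicates 2, 3 and 4, -0.15 to -0.08) and with DESeq2 (adjusted p = 0.186). PMVK, LSS and STARD4 did not pass, with intervals from -0.47 to 0.67. LSS passed as lower without OVCAR3 DMSO replicate 1 or UWB1.289 DMSO replicate 1 (-0.25 and -0.32), and STARD4 as higher without OVCAR3 DMSO replicate 2 or UWB1.289 DMSO replicate 1 (0.42 and 0.39).

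**Figure D4:**
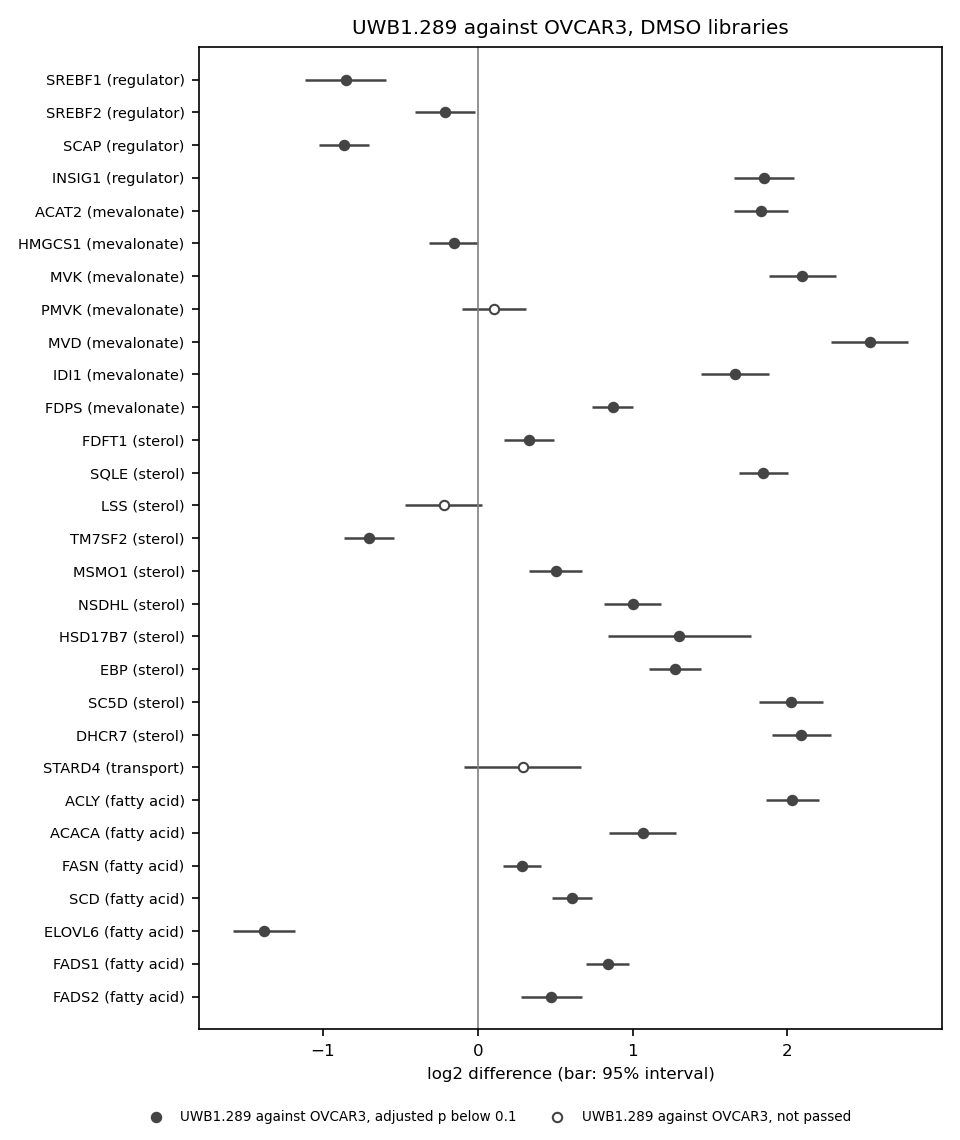
Log2 difference of UWB1.289 against OVCAR3 in the DMSO libraries (horizontal axis) for the 29 tested members (vertical axis, with the role of each), with bars for the 95% interval and filled points for an adjusted p below 0.1. MVD lies furthest right at 2.53 and ELOVL6 furthest left at -1.38, and SREBF1, SREBF2 and SCAP lie left of 0 while INSIG1 lies at 1.85.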

How the data were processed

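The deposited values were whole-number read counts per gene, which the authors made from QuantSeq 3' libraries. Per the labels and the study's methods, reads were trimmed with BBDuk, aligned to hg38 with STAR 2.7.9a and counted with featureCounts 2.0.0 and GENCODE release 38. The settings for strand, multimapping and overlapping genes are not given in the sources used here. All 16 columns were used, with 0 left out. No 2 libraries of a group were identical.

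The test was the quasi-likelihood test of edgeR 4.0.16 (R 4.3.3) after TMM normalization and filterByExpr, with Benjamini-Hochberg adjusted p over all genes tested. The study used DESeq2 with the same thresholds on the adjusted p (0.1), fold (2) and average count (10). Each line was fitted alone, and the difference between lines as an interaction over 16 libraries. Standard errors were derived from each log2 fold change and its F statistic. Log2 CPM used a prior count of 2. The scripts were tested on simulated data. Total counts of 5599571 to 7730228 make counts near 10 imprecise, and floors cover counting error only.

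Per-library values are given for the 4 largest changes that passed in each comparison and for the 4 regulators, and other members by ranges. The members, lists and rules were chosen with earlier results of these data known. Of other lists the rule names at most 2 genes that passed per line, and those named beyond it were named after their values were seen. A gene of another list is not reported here. Alternatives were DESeq2 1.42.0, its size factors, no filter, an adjusted p below 0.05, an average count above 50, all 16 libraries, a replicate block, 0.5 as the prior count and each library omitted in turn. Same-numbered libraries correlated, over 8799 genes after removing group means, at 0.146 to 0.241 in UWB1.289 and at 0.0422 to 0.167 in OVCAR3. Differently numbered libraries ranged from -0.225 to 0.171 in UWB1.289 and from -0.236 to 0.16 in OVCAR3. The ranges overlap, so a pairing by number is neither established nor excluded. The names of the count columns carry the letter E with the same number, and what E stands for is not stated. With the replicate block the genes that passed went from 1768 to 2379 in UWB1.289 and from 4105 to 4296 in OVCAR3. Blocked values stand beside calls they change in UWB1.289. Coordinates and overlaps come from GENCODE release 44 (hg38), promoters from RefSeq (GRCh38.p14).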

Additional observations from a re-analysis of the deposited data

Results flagged for a closer look

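The olaparib effect differed between the lines for 3 members in the interaction test, namely SCD (0.72 on the log2 scale, UWB1.289 minus OVCAR3), ACLY (-0.63) and FADS1 (-0.33).

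A library stood apart from the other 3 of its group in 12 of 116 combinations of member and group, measured by its gap to the nearest library as a share of the group's range, where chance alone flags about 1 in 20. On the log2 CPM scale these were HMGCS1 in OVCAR3 olaparib replicate 2 (7.72), FADS1 in OVCAR3 olaparib replicate 1 (7.02), and ACLY (5.75), ELOVL6 (5.77) and FADS2 (5.63) in OVCAR3 olaparib replicate 4. In the DMSO libraries of OVCAR3 they were MSMO1 in replicate 2 (6.49) and HSD17B7 in replicate 4 (1.38). In UWB1.289 with DMSO they were LSS in replicate 1 (4.78), ELOVL6 in replicate 2 (5.06) and IDI1 in replicate 3 (5.79), and with olaparib MVD (5.83) and ELOVL6 (4.47), both in replicate 1. OVCAR3 olaparib replicate 4 accounted for 3 of the 12. Over all genes its counts also lay away from its group, by the chi-square per gene between 2 libraries given their total counts. That value was 10.59, 7.694 and 11.77 against olaparib replicates 1, 2 and 3. Among those replicates it was 3.453 to 4.377, and in the other groups it was at most 7.659. Without this library 4450 genes passed in OVCAR3, against 4105 with it.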

How the results depend on the processing

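Changing the test, the size factors, the filter, the adjusted p threshold or fitting all 16 libraries together left every count of members within 1.5 times. Under these settings the count that fell with olaparib lay between 17 and 20 in OVCAR3 and between 17 and 23 in UWB1.289, the highest with the replicate block (23, against 19), which added MVK, SC5D, SREBF1 and STARD4 and changed no other call. In OVCAR3 the block left 20 lower and 1 higher. Leaving out 1 library moved the members lower between 16 (without DMSO replicate 3) and 22 (without olaparib replicate 4) in OVCAR3 and between 17 and 23 in UWB1.289, the members higher in OVCAR3 between 0 and 1 (0 without DMSO replicate 1, DMSO replicate 4 or olaparib replicate 2), those differentially expressed in OVCAR3 between 1 and 4 (1 without DMSO replicate 2), those in UWB1.289 between 0 and 1 (1 without olaparib replicate 1), and those lower in the difference between the lines between 1 and 3 (1 without UWB1.289 DMSO replicate 2, 3 without UWB1.289 olaparib replicate 2). The difference for HSD17B7, 0.01, turned to -0.0096 with DESeq2, -0.0078 with its size factors, -0.0089 with the replicate block and -0.035 without the filter. With 1 library left out it ranged from -0.10 to 0.18, and those of ACACA from -0.13 to 0.075, IDI1 from -0.28 to 0.078, MVK from -0.018 to 0.23, SCAP from -0.13 to 0.081 and SREBF2 from -0.13 to 0.060. The olaparib effect ranged from -0.28 to 0.053 for NSDHL and from -0.19 to 0.090 for SC5D in OVCAR3, and from -0.013 to 0.14 for NSDHL in UWB1.289. None of the values of opposite sign passed the test, and the cause was not tested. Depth limits HSD17B7, STARD4 and MVD in OVCAR3, with 16 to 73 counts per library with DMSO.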

Other observations

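CH25H, which makes the oxysterol 25-hydroxycholesterol, was below the filter on low counts in both lines and was chosen here after its values were seen. In OVCAR3 it had 1, 1, 2 and 0 counts in DMSO replicates 1 to 4 and 13, 8, 12 and 6 counts in olaparib replicates 1 to 4, so every olaparib library lay above every DMSO library. In UWB1.289 it had 0 counts in every DMSO library and at most 2 with olaparib.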
